A study of Mus musculus with 8 samples.

Results

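The step from early large pre-B (early LPre-B) to small pre-B (sPre-B) cells was followed in mice with intact UPF1, the RNA helicase at the centre of nonsense-mediated mRNA decay (NMD). All samples labelled Ctrl, B1-8hi were taken, which gave 4 libraries of the 8 in the series, 2 per stage, and every expressed gene was compared between the stages. Ctrl mice carried *Igh* B1-8hi/+ and *Upf1* Flox/Flox with *Mb1* +/+. The other 4 libraries came from cKO mice, with the same *Igh* and *Upf1* alleles but *Mb1* Cre/+, in which the *Mb1* (*Cd79a*) locus drives Cre in B-lineage cells, and they served for the shared estimate of the spread and for a test of whether the stage change differed. All mice were 8 to 16 weeks old, of both sexes and on a C57BL/6 background. B1-8hi is a heavy chain allele knocked in with its V, D and J segments already joined, so cells of both stages could make a heavy chain without recombining *Igh*, which limits them as a model of the wild-type step. Both populations were sorted from bone marrow as B220+ cells that lacked lineage markers and surface IgM. Early LPre-B cells were positive for CD43, large by forward scatter and negative for CD2, whereas sPre-B cells were low for CD43, small, and positive for CD25 and CD2.

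As background, a pre-B cell that makes a heavy chain displays it with the surrogate light chain, built from VPREB and lambda5, as the pre-B cell receptor (pre-BCR). Signals from this receptor and from the IL-7 receptor drive a burst of division, after which the cell stops dividing, becomes small, re-expresses the RAG recombinase and joins V and J segments of a light chain locus. Loss of the surrogate light chain, exit from the cell cycle and opening of the kappa and lambda loci are the textbook hallmarks of the sPre-B stage.

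Total counts were 160426338 and 83644947 in early LPre-B replicates 1 and 2 and 81965096 and 68516857 in sPre-B replicates 1 and 2. Levels are given as CPM, counts relative to the library total after scaling with edgeR's TMM factors, and the smallest level shown by 3 counts lay between 0.0217 and 0.0426 CPM in the Ctrl libraries, which covers counting error only. Values for a pair of libraries are given in the order replicate 1, replicate 2. The median gene differed by 0.165 (log2, after adding 0.5 CPM) between the early LPre-B libraries and by 0.133 between the sPre-B libraries, whereas the median size of the fitted change between stages was 0.713. Replicate 1 of each stage was high in *Xist* and had almost no counts over 4 Y-linked genes, and replicate 2 was the reverse, so that both patterns were present at each stage. The replicates of each Ctrl stage therefore came from different animals, while nothing states that libraries with 1 number share an animal. The study describes the points of its graphs as independent biological replicates, without saying for these libraries whether the cKO replicates came from separate mice. Each P measures only the spread between these libraries. In RNA from a sorted population, fewer cells of a type and less RNA per cell cannot be told apart. The defining B-lineage markers were present at both stages, with *Cd79a* at 640.5 and 543 CPM in early LPre-B and 1478 and 1602 CPM in sPre-B cells and *Pax5* at 318 and 314 CPM in early LPre-B and 514 and 583 CPM in sPre-B cells. Transcripts of the sorted proteins followed the gates, and since the gates chose the cells by them they are a description only. *Cd2* stood at 5.45 and 5.64 CPM in early LPre-B and 178 and 161 CPM in sPre-B cells, *Il2ra*, which encodes CD25, at 36.6 and 53.6 CPM in early LPre-B and 476 and 479 CPM in sPre-B cells, and *Spn*, which encodes CD43, at 198 and 184 CPM in early LPre-B and 60.1 and 47.5 CPM in sPre-B cells.

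Of 17700 genes tested, 5149 (29.1%) had a higher and 5500 (31.1%) a lower level at the small stage, taking an adjusted P under 0.05 as the threshold (edgeR's two-sided quasi-likelihood test with Benjamini-Hochberg adjustment, used for every P below). The larger changes leaned downwards, with 814 genes (4.60%) at a log2 fold change of at least 2 and 1498 (8.46%) at −2 or less. The median log2 fold change over all genes tested was 0.02. Libraries of the stages did not overlap in 40.5% of genes with the sPre-B libraries above and in 40.3% with them below. The classes of genes differed in their direction. Among 219 immunoglobulin V segments 159 were higher and 9 lower, among 974 long noncoding RNAs 317 and 200, among 14533 protein-coding genes 4177 and 4760, and among 214 pseudogenes 14 and 108. *Malat1*, a nuclear noncoding RNA chosen after its values were seen, had the highest count of all genes in sPre-B cells and rose from 3166 and 4787 to 16932 and 21022 CPM (log2 fold change 2.25, SE 0.28, edgeR adjusted P = 0.000149).

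**Figure D1:**
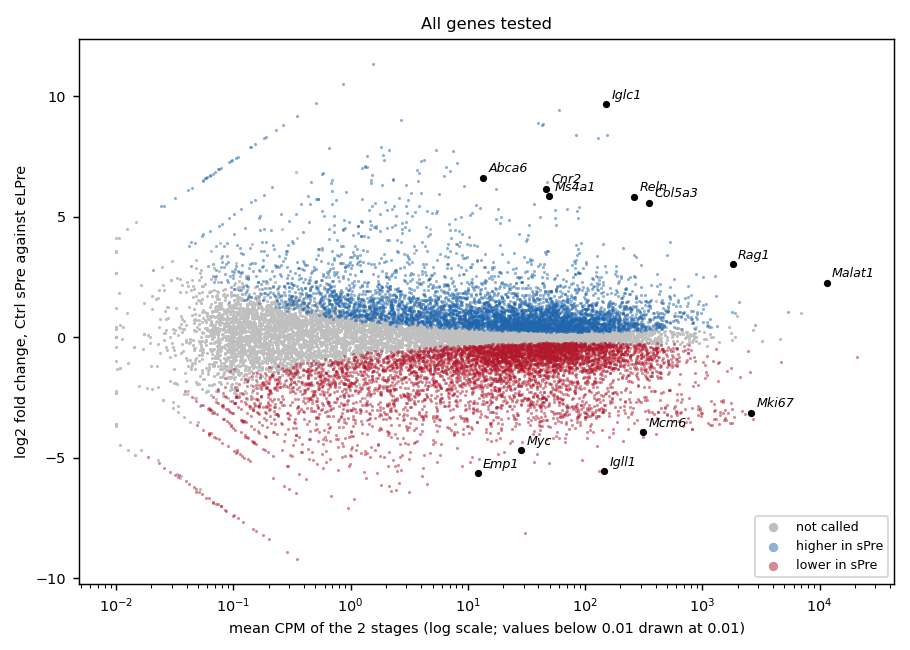
Each point is a gene tested, with its mean CPM over the Ctrl stages on the horizontal log axis and its log2 fold change (sPre against early LPre) on the vertical axis. Genes called higher (5149) are blue, genes called lower (5500) red and the others grey, and named points include *Rag1* at 3.03 and *Igll1* at −5.56. Slanted lines of points at low CPM are genes with 0 or a few counts at a stage.

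The 15 largest increases among well-expressed genes (at least 20 CPM at the higher stage, at least 3 counts in every Ctrl library, no overlap of libraries, immunoglobulin segments and histones left out) ran from 5.15 to 6.61. They were led by the lipid transporter *Abca6*, at 0.231 and 0.333 CPM in early LPre-B and 22.6 and 31.3 CPM in sPre-B cells, and *Cnr2*, the cannabinoid receptor CB2 of lymphocytes, at 1.29 and 1.29 CPM in early LPre-B and 83.4 and 101 CPM in sPre-B cells. *Ms4a1*, which encodes CD20, a surface protein of later B cells, stood at 1.75 and 1.61 CPM in early LPre-B and 84.6 and 110.5 CPM in sPre-B cells. Several members are better known outside B cells. The extracellular glycoprotein *Reln* was at 11.1 and 6.83 CPM in early LPre-B and 632 and 393 CPM in sPre-B cells, the collagen *Col5a3* at 14.3 and 14.6 CPM in early LPre-B and 669 and 709 CPM in sPre-B cells, and the coagulation factor *F5* at 2.52 and 3.10 CPM in early LPre-B and 115 and 103 CPM in sPre-B cells. The rule itself required the libraries of the stages not to overlap. Others of the 15 were *Agbl1* (6.14), the phosphodiesterase *Pde4c* (5.52), the adaptor *Scimp* (5.50), the Schlafen family member *Slfn2* (5.40), the collagen *Col25a1* (5.35), the noncoding RNA *BE692007* (5.32), *Klhl14* (5.22) and *Smoc1*.

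The 15 largest decreases by the same rule ran from −4.50 to −5.64. They were led by the membrane protein *Emp1*, at 26.4 and 21.1 CPM in early LPre-B and 0.638 and 0.298 CPM in sPre-B cells. Genes of the surrogate light chain (*Igll1*, *Vpreb2* and *Vpreb1*) and *Dntt* followed among the top 8 and are described below. Also among them were *Nrgn*, a calmodulin-binding protein, at 114 and 79.0 CPM in early LPre-B and 3.30 and 1.83 CPM in sPre-B cells, *Arpp21* at 68.4 and 74.7 CPM in early LPre-B and 2.22 and 1.73 CPM in sPre-B cells, and *Ubash3a*, a regulator of antigen receptor signalling, at 79.9 and 69.8 CPM in early LPre-B and 3.19 and 2.04 CPM in sPre-B cells. *Ung*, the uracil-DNA glycosylase, and *Dtl*, a factor that directs replication licensing proteins to degradation, fell with log2 fold changes of −4.78 and −4.50. The remainder were *Fam167a* (−5.17), *Cracdl* (−5.05), the potassium channel *Kcnn4* (−4.99), the calcium pump *Atp2b4* (−4.84) and *Myc* (−4.68).

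The genes that copy DNA fell as a body. All 32 genes of the replication machinery were lower in sPre-B cells, where 31.1% of all genes tested were lower, and their median log2 fold change was −3.21 against 0.02 over all genes. The MCM helicase, which opens DNA at origins, showed this in every subunit. *Mcm5* stood at 615 and 513 CPM in early LPre-B and 48.0 and 30.4 CPM in sPre-B cells, *Mcm6* at 637 and 535 CPM in early LPre-B and 46.5 and 29.2 CPM in sPre-B cells, and *Mcm2* at 550.3 and 419.6 CPM in early LPre-B and 48.4 and 33.8 CPM in sPre-B cells. For *Mcm6* the log2 fold change was −3.95, SE 0.23 and the adjusted P 2.72e-06 (edgeR), whereas *Mcm7* fell less, at −2.62, SE 0.14. The licensing factors *Cdc6* and *Mcm10* fell by 4.20 and 4.36 on the log2 scale, the DNA ligase *Lig1* by 4.31, and the sliding clamp *Pcna* by 3.11. The smallest decreases were those of *Gins4* (−0.95), *Pold1* (−1.30) and *Rfc3* (−1.58). Enzymes that supply nucleotides moved with them, with 20 of 20 lower and a median of −2.59. *Rrm2*, the regulated subunit of ribonucleotide reductase, went from 778 and 743 to 62.4 and 31.6 CPM, and *Dut* and *Tyms*, which keep uracil out of DNA and make thymidylate, fell by 4.17 and 4.02. *Dck*, which salvages deoxynucleosides, fell least, at 446 and 460.4 CPM in early LPre-B and 243 and 239 CPM in sPre-B cells.

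Genes of mitosis were likewise lower in 37 of 38 cases, against 31.1% of all genes tested, with a median log2 fold change of −3.03. The proliferation antigen gene *Mki67* stood at 4460.1 and 4927 CPM in early LPre-B and 717 and 359.6 CPM in sPre-B cells, topoisomerase *Top2a* at 2427 and 2641 CPM in early LPre-B and 368 and 181 CPM in sPre-B cells, and the kinase *Plk1* at 227 and 212 CPM in early LPre-B and 32.8 and 18.7 CPM in sPre-B cells. The exception was the securin gene *Pttg1*, at 10.5 and 8.77 CPM in early LPre-B and 8.95 and 9.06 CPM in sPre-B cells, where the stages overlapped. The sPre-B libraries differed in what was left of these transcripts. Replicate 1 exceeded replicate 2 in 37 of 38 mitotic genes, and mitotic genes together took 0.287% of the counts in replicate 1 and 0.160% in replicate 2, against 1.4% and 1.64% in the early LPre-B libraries.

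Replication-dependent histone genes, whose mRNAs end in a stem-loop in place of a poly(A) tail, lost the largest share of counts among the lists examined. The libraries were prepared by ribosomal RNA depletion, which does not select for a poly(A) tail. Their 64 genes took 10.7% and 9.07% of all counts before the step and 1.84% and 0.972% after it. Each of the 64 was called lower, where 31.1% of all genes tested were, with a median log2 fold change of −3.14. In 62 of them sPre-B replicate 1 was above replicate 2. *H3c14* on chromosome 3 went from 5347 and 4460.1 to 617 and 311 CPM and *H3c7* in the cluster on chromosome 13 from 5172 and 3872 to 721 and 338 CPM. The linker histone *H1f2* kept more of its level, at 3297 and 3064 CPM in early LPre-B and 1233 and 803 CPM in sPre-B cells, and *H2bc21* most, with a log2 fold change of −0.67, SE 0.11. Histone genes of 1 family are near-identical, so counts of single members are uncertain.

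Regulators of the cycle did not all move alike. Of 23 cyclin, CDK and CDC25 genes, 17 fell and 4 rose, where 31.1% and 29.1% of all genes tested did. Their median log2 fold change was −2.11. Among the D cyclins, which couple receptor signals to the cycle, *Ccnd2* stood at 168 and 145 CPM in early LPre-B and 18.1 and 12.1 CPM in sPre-B cells and *Ccnd3*, the main D cyclin of pre-B cells, at 1546 and 1178 CPM in early LPre-B and 380.1 and 363 CPM in sPre-B cells. The S-phase cyclin *Ccne1* fell by 4.33 on the log2 scale, and the kinases *Cdk6* and *Cdk1* by 3.06 and 3.18. Those that rose were *Ccnd1* (0.67), *Ccng2* (0.43), *Cdk7* (0.50) and *Cdk9* (0.43), the last a kinase of transcription elongation. Of 10 genes of CDK inhibitors and pocket proteins, 2 rose and 6 fell, against 29.1% and 31.1% of all genes tested. *Cdkn1b*, which encodes p27, rose from 107 and 111 to 243 and 235 CPM (log2 fold change 1.14, SE 0.08, edgeR adjusted P = 9.04e-06), whereas *Cdkn1a*, which encodes p21, fell from 49.4 and 44.7 to 4.54 and 3.50 CPM (log2 fold change −3.55, SE 0.16, edgeR adjusted P = 1.23e-06). *Cdkn2c* (p18) fell by 2.80 on the log2 scale and the retinoblastoma relative *Rbl1* (p107) by 2.55, while *Rbl2* (p130), the relative that binds E2F in resting cells, rose by 0.31. *Rbl2* was not called without early LPre-B replicate 1 (log2 fold change 0.31, adjusted P = 0.0755, edgeR) or without sPre-B replicate 1 (0.35, adjusted P = 0.0515, edgeR). Of 16 E2F and DREAM genes, 11 fell, beside 31.1% of all genes tested. Among them *E2f1*, *E2f7*, *E2f8*, *Mybl2* and *Tfdp1* fell by 3.45, 3.66, 3.80, 3.64 and 3.29. *Lin37* alone among them was called higher, at 0.42, SE 0.10, and *E2f2* stood at 711 and 735 CPM in early LPre-B and 581 and 668 CPM in sPre-B cells.

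Promoters of these genes were examined because replication and mitosis genes fell together, and sequences of members with the motifs below are shown. RefSeq windows of build GRCm38.p6, 250 bases before to 50 after the start, were matched to 12472 of the 17700 genes tested and searched on both strands for the E2F letters TTTCCCGC or TTTGGCGC, for the cell cycle homology region (CHR) letters TTTGAA or TTCGAA, and for CCAAT. Each window printed here holds only the 150 bases before the start, 5′ to 3′ on the gene's strand, with matches in capitals. *Mcm5* (chr8:75109359-75109508, plus strand) and *Mcm6* (chr1:128359706-128359855, minus strand) stand for replication, and the anaphase factors *Ube2c* (chr2:164769779-164769928, plus strand) and *Cdc20* (chr4:118437344-118437493, minus strand) and the spindle kinesin *Kif11* (chr19:37376232-37376381, plus strand) for mitosis.
Mcm5: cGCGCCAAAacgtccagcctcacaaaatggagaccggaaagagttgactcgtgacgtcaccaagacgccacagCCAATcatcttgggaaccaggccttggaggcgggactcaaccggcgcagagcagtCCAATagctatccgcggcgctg
Mcm6: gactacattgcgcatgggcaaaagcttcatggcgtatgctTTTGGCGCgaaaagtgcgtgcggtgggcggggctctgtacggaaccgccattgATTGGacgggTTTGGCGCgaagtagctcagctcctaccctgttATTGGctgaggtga
Ube2c: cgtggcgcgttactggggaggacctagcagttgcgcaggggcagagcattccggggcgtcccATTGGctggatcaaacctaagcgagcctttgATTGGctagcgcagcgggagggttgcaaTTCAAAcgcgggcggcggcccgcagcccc
Cdc20: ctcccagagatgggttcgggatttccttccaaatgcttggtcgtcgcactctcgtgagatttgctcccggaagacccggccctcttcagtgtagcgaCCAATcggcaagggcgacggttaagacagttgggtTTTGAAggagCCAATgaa
Kif11: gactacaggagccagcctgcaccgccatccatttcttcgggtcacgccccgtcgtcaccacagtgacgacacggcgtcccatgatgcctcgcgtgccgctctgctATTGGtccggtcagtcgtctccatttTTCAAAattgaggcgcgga
The E2F letters start 149 bases before the start of *Mcm5* and 110 and 47 before that of *Mcm6*. The CHR letters lie 29, 18 and 19 bases before the starts of *Ube2c*, *Cdc20* and *Kif11*, in each case with a CCAAT match, read on either strand, within 57 bases of the start. Over whole windows, the E2F letters occurred in 10 of 27 replication genes with a promoter (37.0%) and in 1 of 32 mitotic genes (3.12%), and the CHR letters in 6 of 27 (22.2%) and 25 of 32 (78.1%). CCAAT occurred in 19 of 27 (70.4%), in 24 of 32 (75%) and in 50 of 59 histone genes (84.7%). All genes tested held them at 3.10%, 16.9% and 42.3%. Among the 1084 genes with a log2 fold change of −2 or less that had a promoter, 5.81% held the E2F letters (95% Wilson interval 4.57% to 7.37%), 25.6% the CHR letters and 48.8% CCAAT, and among the 474 with 2 or more, 0.844%, 20% and 37.6% did. These shares are descriptions of letters and were not tested.

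**Figure D2:**
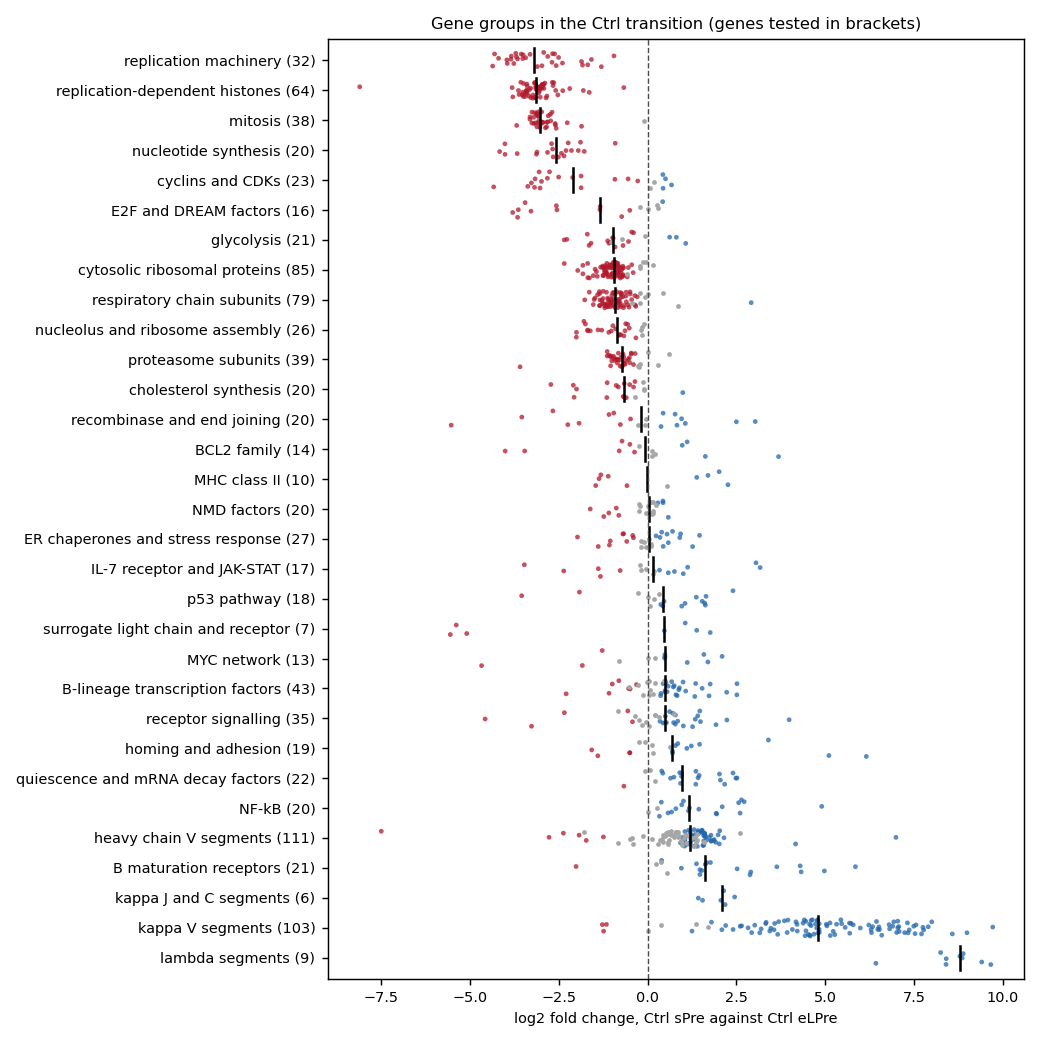
Each row is a group of genes, each point the log2 fold change of a gene (sPre against early LPre, Ctrl), blue where called higher, red where called lower and grey where not called, with the group's median as a black bar and the median of all genes (0.02) as a dashed line. Medians run from −3.21 for the replication machinery to 8.79 for lambda segments.

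The subunits of the pre-BCR moved in opposite directions, the surrogate light chain down and the signalling subunits up. The surrogate light chain genes lie together on chromosome 16, *Igll1* (lambda5) at chr16:16863986-16864135 for the bases before its start and *Vpreb1* at chr16:16869256-16869405, both on the minus strand, and these windows are printed because the genes were among the largest decreases.
Igll1: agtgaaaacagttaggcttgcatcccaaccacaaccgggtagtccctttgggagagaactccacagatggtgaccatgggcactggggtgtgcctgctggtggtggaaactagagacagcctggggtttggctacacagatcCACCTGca
Vpreb1: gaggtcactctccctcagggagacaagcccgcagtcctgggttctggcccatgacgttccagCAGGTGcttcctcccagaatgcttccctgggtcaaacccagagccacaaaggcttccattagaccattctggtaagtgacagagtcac
Capitals mark the E-box CAGGTG, read on either strand, which begins 8 bases before the start of *Igll1* and 88 before that of *Vpreb1* and is found in 21.7% of all genes tested with a promoter. *Igll1* stood at 338 and 229 CPM in early LPre-B and 6.28 and 5.76 CPM in sPre-B cells (log2 fold change −5.56, SE 0.21, edgeR adjusted P = 6.87e-07). *Vpreb1* was at 225 and 138 CPM in early LPre-B and 5.71 and 4.91 CPM in sPre-B cells (log2 fold change −5.09, SE 0.24, edgeR adjusted P = 1.37e-06), and *Vpreb2*, a near-identical copy whose counts may be shared with it, at 37.4 and 23.2 CPM in early LPre-B and 0.839 and 0.596 CPM in sPre-B cells. In all 3 early LPre-B replicate 1 was the highest library. The signal-bearing subunits rose. *Cd79b* went from 407 and 326 to 1259.7 and 1227 CPM (log2 fold change 1.76, SE 0.15, edgeR adjusted P = 1.64e-05) and *Cd79a* with a log2 fold change of 1.38, SE 0.16. The heavy chain constant gene *Ighm* was at 3718 and 3317 CPM in early LPre-B and 7349.6 and 7293 CPM in sPre-B cells (log2 fold change 1.06, SE 0.18, edgeR adjusted P = 0.00107), and *Vpreb3*, a chaperone of light chain assembly, rose by 0.47.

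Of the lists examined, the light chain loci had the highest medians. All 9 lambda segments rose, where 29.1% of all genes tested did, with log2 fold changes from 6.43 to 9.66. *Iglv1* on chromosome 16 (chr16:19085017-19085460 in mm10) stood at 0.796 and 1.06 CPM in early LPre-B and 325 and 291 CPM in sPre-B cells (log2 fold change 8.40, SE 0.16, edgeR adjusted P = 7.12e-08), *Iglc1* at 0.282 and 0.513 CPM in early LPre-B and 316 and 292 CPM in sPre-B cells and *Iglc2* at 0.376 and 0.654 CPM in early LPre-B and 178 and 155 CPM in sPre-B cells. In early LPre-B cells the *Iglv1* level rested on 110 and 83 counts. Lambda constant genes are near-identical, so their split is uncertain. On the kappa locus, *Igkc* rose from 150 and 154 to 619.7 and 724 CPM (log2 fold change 2.14, SE 0.13, edgeR adjusted P = 3.28e-06), and the 6 J and C segments had a median log2 fold change of 2.10. Of 103 kappa V segments, 96 rose, 94 of them by 2 or more on the log2 scale, beside 29.1% and 4.60% of all genes tested. Their median was 4.79. It was 4.76 when the 6 segments with 0 counts at a stage were set to the bound that 3 counts over that stage's libraries allow. *Igkv1-135*, the V segment with the most counts in sPre-B cells, was at 2.62 and 4.68 CPM in early LPre-B and 59.5 and 62.1 CPM in sPre-B cells. Summed over the segments, kappa V RNA went from 60.6 and 63.1 to 557 and 550.2 CPM.

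The 3 kappa V segments that fell lay at 2 places of the locus. *Igkv9-124* (chr6:67942076-67942540) and its neighbour *Igkv9-123* (chr6:67954230-67954690) were at 6.89 and 7.34 CPM in early LPre-B and 3.39 and 2.96 CPM in sPre-B cells and at 3.36 and 3.67 CPM in early LPre-B and 1.69 and 1.28 CPM in sPre-B cells. *Igkv1-88* (chr6:68862265-68863031) fell from 22.3 and 21.3 to 8.52 and 9.46 CPM (log2 fold change −1.28, SE 0.15, edgeR adjusted P = 0.000125), and it had the most counts of any V segment of the locus in early LPre-B cells. Its neighbour *Igkv12-89* stood at 3.35 and 3.40 CPM in early LPre-B and 3.76 and 4.98 CPM in sPre-B cells and was not called. Strand was not used in the counting, so reads of other transcripts over these segments cannot be told apart from theirs. Heavy chain V segments moved less. Of 111 tested, 60 rose and 6 fell, with a median of 1.19, and of 13 tested heavy chain D and J segments 7 rose and 0 fell, both beside 29.1% and 31.1% of all genes. *Ighv1-72*, the germline segment from which the B1-8 heavy chain derives, had the most counts of them at both stages and rose from 236 and 205 to 469 and 471 CPM, a log2 fold change of 1.09, SE 0.12 beside 1.06 for *Ighm*.

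**Figure D3:**
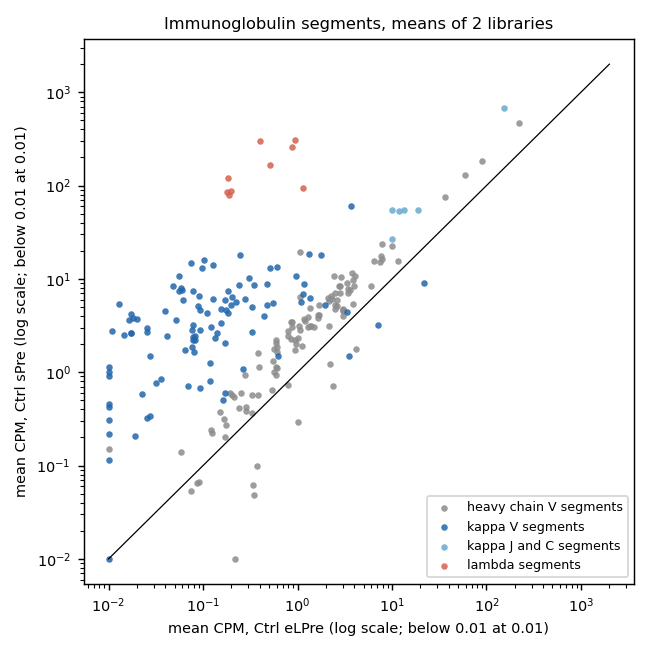
Each point is an immunoglobulin segment, with its mean CPM over the early LPre-B libraries on the horizontal and over the sPre-B libraries on the vertical log axis, and the line marks equal levels. Lambda segments (red) and most kappa V segments (dark blue) lie far above the line. Heavy chain V segments (grey) mostly lie closer to it, with a median log2 fold change of 1.19.

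Genes of V(D)J recombination include the RAG recombinase, TdT and the factors that join broken ends. *Rag1*, which cuts at recombination signals, rose from 409 and 385 to 3508 and 2964 CPM (log2 fold change 3.03, SE 0.25, edgeR adjusted P = 1.61e-05), an 8.16-fold increase. Its partner *Rag2*, transcribed from the neighbouring gene in the opposite direction, rose from 89.0 and 85.9 to 155 and 144 CPM (log2 fold change 0.77, SE 0.13, edgeR adjusted P = 0.000871), a 1.71-fold increase. The 150 bases before the *Rag1* start (chr2:101649533-101649682, minus strand) are printed because this gene had the largest increase of the group.
Rag1: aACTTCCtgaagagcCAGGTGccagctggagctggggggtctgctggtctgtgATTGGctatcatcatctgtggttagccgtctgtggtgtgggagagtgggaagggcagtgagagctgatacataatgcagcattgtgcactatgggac
Capitals mark an ETS match (GGAAGT on the other strand) 149 bases before the start, the E-box CAGGTG 135 and a CCAAT match 97 before it, while the FOXO letters TGTTTAC were not found in this window. ETS letters occur in 31.0% of all genes tested with a promoter. *Dntt*, the template-independent polymerase TdT that adds bases at heavy chain joints, was at 272 and 239.9 CPM in early LPre-B and 6.6 and 4.44 CPM in sPre-B cells (log2 fold change −5.53, SE 0.23, edgeR adjusted P = 9.08e-07). The polymerases of end joining moved in opposite directions, *Polm* from 68.0 and 92.9 to 402 and 506 CPM (log2 fold change 2.50, SE 0.19, edgeR adjusted P = 9.94e-06) and *Poll* from 17.1 and 14.8 to 3.19 and 3.53 CPM (log2 fold change −2.25, SE 0.23, edgeR adjusted P = 5.06e-05). Of the 20 genes of recombination and end joining, 8 rose and 9 fell, against 29.1% and 31.1% of all genes tested, with a median of −0.18 that was −0.04 without early LPre-B replicate 2. Among genes whose products open or join ends, *Dclre1c* (Artemis) rose by 0.96 (SE 0.14), *Xrcc6* (Ku70) by 0.83 (SE 0.16) and *Lig4* by 0.38 (SE 0.12), while *Xrcc5* (Ku80) fell by 0.95 and *Prkdc* (DNA-PKcs) by 0.48. *Lig4* was not called without early LPre-B replicate 1 (adjusted P = 0.0702, edgeR) or without sPre-B replicate 1 (adjusted P = 0.0597, edgeR). *Prkdc* was not called without early LPre-B replicate 2, at −0.23 (adjusted P = 0.175, edgeR), or without sPre-B replicate 1, at −0.29 (adjusted P = 0.155, edgeR). The MRN complex, a sensor of breaks, fell in all 3 members, with *Nbn* at 34.0 and 32.6 CPM in early LPre-B and 3.12 and 2.58 CPM in sPre-B cells and with log2 fold changes of −1.09 for *Rad50* and −0.77 for *Mre11a*. *Hmgb1* and *Hmgb2*, chromatin proteins that help RAG bind and are also high in dividing cells, fell by 1.93 and 2.67.

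**Figure D4:**
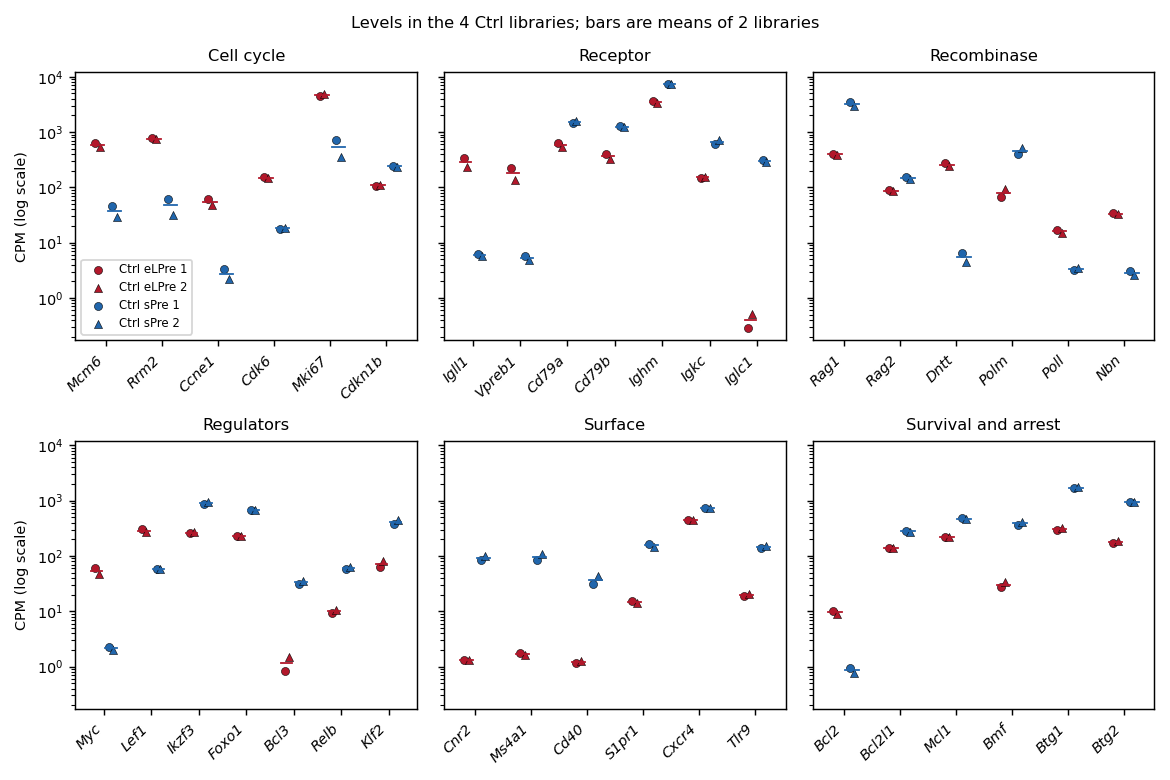
CPM on a log axis of genes named in the text, in Ctrl early LPre-B (red) and sPre-B (blue) libraries, circles for replicate 1 and triangles for replicate 2, with bars for the mean of the 2 libraries. The stages do not overlap for any gene drawn, and some of these genes were named by a rule that required this. Over all genes tested the sPre-B libraries lay wholly above in 40.5% and wholly below in 40.3%. *Rag1* reaches 3508 and 2964 CPM in sPre-B cells.

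Genes of receptor signalling rose more often than they fell, 20 against 5 of 35, beside 29.1% higher and 31.1% lower over all genes. The kinase *Syk*, which acts first at the phosphorylated receptor, stood at 1021 and 1148 CPM in early LPre-B and 2883 and 3119 CPM in sPre-B cells (log2 fold change 1.47, SE 0.16, edgeR adjusted P = 7.9e-05), and *Lyn* and *Blk*, Src-family kinases of B cells, rose by 1.41 and 0.85 on the log2 scale. The adaptor *Blnk* and the kinase *Btk* rose by 0.50 and 0.50. The scaffold *Bank1* stood at 3.78 and 3.61 CPM in early LPre-B and 51.4 and 65.8 CPM in sPre-B cells and the Ras activator *Rasgrp1* at 67.8 and 66.7 CPM in early LPre-B and 303 and 328 CPM in sPre-B cells. In contrast the SYK relative *Zap70* fell from 17.6 and 13.8 to 0.792 and 0.511 CPM (log2 fold change −4.58, SE 0.38, edgeR adjusted P = 1.6e-05), the exchange factor *Vav3* by 2.35 and the phosphatase *Ptpn22* by 3.27. *Plcg2*, *Vav1* and *Inpp5d* were not called, at −0.17, 0.21 and −0.24.

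The IL-7 receptor itself was not called, with *Il7r* at 460.2 and 625 CPM in early LPre-B and 558 and 635 CPM in sPre-B cells (log2 fold change 0.14, SE 0.21, edgeR adjusted P = 0.588). Of the 17 genes of the receptor and its JAK-STAT pathway, 7 were called higher and 5 lower, against 29.1% and 31.1% of all genes tested. *Socs1*, which inhibits JAK kinases, rose from 8.77 and 8.96 to 74.6 and 72.3 CPM (log2 fold change 3.05, SE 0.14, edgeR adjusted P = 1.17e-06), and the kinase *Pim2* from 16.4 and 15.5 to 153 and 134 CPM (log2 fold change 3.17, SE 0.12, edgeR adjusted P = 8.93e-07). *Socs2*, *Cish* and *Jak3* fell, by 2.36, 0.77 and 1.39, while *Stat5a* and *Stat5b*, the transducers of IL-7 signals, stood at −0.18 and −0.06 and were not called. *Cish* was not called without replicate 2 of early LPre-B (log2 fold change −0.68) or of sPre-B cells (−0.49). *Kit*, the stem cell factor receptor of early progenitors, was at 18.7 and 15.1 CPM in early LPre-B and 1.36 and 1.69 CPM in sPre-B cells. *Myc*, a driver of growth and division, went from 60.9 and 48.1 to 2.27 and 1.99 CPM (log2 fold change −4.68, SE 0.22, edgeR adjusted P = 1.37e-06), a 25.6-fold decrease. Of the 13 genes of its network, 7 rose and 3 fell, beside the same shares of all genes. Those that rose included the antagonists *Mxd4* and *Mxd1* by 1.58 and 1.12 and the glucose-sensing partner *Mlxip* by 1.70, whereas *Mxd3*, an antagonist expressed in S phase, fell by 1.84. *Max*, the common partner of MYC and the MXD proteins, was not called, at 70.0 and 62.8 CPM in early LPre-B and 68.0 and 66.6 CPM in sPre-B cells.

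Transcription factors of the B lineage rose in 26 of 43 cases and fell in 7, against 29.1% and 31.1% of all genes tested, with a median log2 fold change of 0.49. *Foxo1*, an activator of the *Rag* genes, stood at 231 and 234 CPM in early LPre-B and 682 and 667 CPM in sPre-B cells (log2 fold change 1.53, SE 0.10, edgeR adjusted P = 4.98e-06). *Ikzf3* (Aiolos), which silences the surrogate light chain, was at 260.0 and 267 CPM in early LPre-B and 855 and 929 CPM in sPre-B cells (log2 fold change 1.76, SE 0.12, edgeR adjusted P = 5.7e-06), while *Ikzf1* (Ikaros) was not called, at 1207 and 1224 CPM in early LPre-B and 1288 and 1189 CPM in sPre-B cells. The IRF and ETS factors *Irf4* and *Spib* rose by 0.58 and 1.73, and the quiescence factor *Klf2* went from 63.9 and 80.9 to 375 and 452 CPM. *Brwd1*, a reader of chromatin at the kappa locus, was at 109 and 197 CPM in early LPre-B and 614 and 818 CPM in sPre-B cells, with the early LPre-B libraries further apart than those of most genes. *Pax5* and *Ebf1*, which fix B identity, rose by 0.80 and 0.83. *Lef1*, a factor of pro-B and large pre-B cells, fell from 309.9 and 267 to 58.7 and 59.0 CPM (log2 fold change −2.29, SE 0.16, edgeR adjusted P = 6.29e-06), and *Mef2c* and *Runx3* by 1.0 and 1.09. Genes of NF-kB, an inducible family of transcription factors, rose in 18 of 20 cases and fell in 0, beside the same shares of all genes, with a median of 1.16. The subunits *Nfkb2* and *Relb* of the alternative pathway rose by 2.64 and 2.60, against 0.67 and 0.33 for *Nfkb1* and *Rela* of the classical pathway. *Bcl3*, a nuclear partner, was at 0.825 and 1.47 CPM in early LPre-B and 31.1 and 35.8 CPM in sPre-B cells (log2 fold change 4.90, SE 0.32, edgeR adjusted P = 4.82e-06), and the feedback inhibitors *Nfkbia* and *Tnfaip3* rose by 1.44 and 2.10.

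Receptors of later B cells were higher in sPre-B cells in 17 of 21 cases, against 29.1% of all genes tested, with a median of 1.62. *Cd40*, which receives T-cell help, stood at 1.14 and 1.24 CPM in early LPre-B and 31.5 and 43.1 CPM in sPre-B cells (log2 fold change 4.98, SE 0.24, edgeR adjusted P = 1.37e-06), the complement regulator *Cd55* at 11.7 and 14.1 CPM in early LPre-B and 139.9 and 180.1 CPM in sPre-B cells and the DNA sensor *Tlr9* at 18.8 and 20.9 CPM in early LPre-B and 138 and 154 CPM in sPre-B cells. The costimulator *Cd86* rose by 4.32 on the log2 scale but stayed low, at 5.07 and 5.50 CPM, and *Fcer2a* (CD23) stood at 1.45 and 2.28 CPM in early LPre-B and 6.03 and 5.33 CPM in sPre-B cells. *Tlr4* alone fell, from 9.29 and 8.06 to 2.73 and 1.55 CPM, and *Cr2* (CD21) was not called, at 0.37, SE 0.19. Of the 10 MHC class II genes 4 rose and 5 fell, against 29.1% and 31.1% of all genes tested, and 1 was not called. The presenting chains fell, *H2-Ab1* from 159 and 139 to 59.9 and 48.3 CPM (log2 fold change −1.46, SE 0.19, edgeR adjusted P = 0.000216) and *H2-Aa* and *H2-Eb1* by 1.11 and 1.32, as did their transactivator *Ciita*, at 69.7 and 83.6 CPM in early LPre-B and 31.6 and 27.7 CPM in sPre-B cells. The invariant chain *Cd74* rose from 92.0 and 86.7 to 362 and 359 CPM (log2 fold change 2.01, SE 0.26, edgeR adjusted P = 0.000195), and the peptide-loading regulators *H2-Oa* and *H2-Ob* rose by 2.26 and 1.38. The chains of the peptide-loading molecule DM were mixed, with *H2-DMa* lower by 0.58, *H2-DMb2* higher by 1.70 and *H2-DMb1* not called at 0.54. *H2-DMa* was not called without early LPre-B replicate 1, at −0.44, or without sPre-B replicate 2, at −0.46. In contrast *H2-DMb1* was called higher without sPre-B replicate 1, at 0.83, and with DESeq2, at 0.57. It was also called higher without the expression filter (0.53), with a replicate block within genotype (0.52) and in the 4 Ctrl libraries alone (0.55). Among 19 homing and adhesion genes 10 rose and 4 fell, beside the same shares of all genes. *S1pr1*, which guides exit to the blood, went from 15.1 and 14.4 to 168 and 144 CPM (log2 fold change 3.40, SE 0.12, edgeR adjusted P = 6.36e-07), the marrow-retention receptor *Cxcr4* from 453 and 445 to 738 and 722 CPM (log2 fold change 0.70, SE 0.14, edgeR adjusted P = 0.00199), and the follicle-homing receptor *Cxcr5* from 13.4 and 8.59 to 4.0 and 3.39 CPM (log2 fold change −1.57, SE 0.32, edgeR adjusted P = 0.00278). The integrin chains *Itga4* and *Itgb1*, which bind marrow stroma, fell by 0.50 and 0.51, and each missed the threshold without either of 2 libraries. *Itga4* then stood at −0.35 (without early LPre-B replicate 2) and −0.37 (without sPre-B replicate 1), and *Itgb1* at −0.30 (without early LPre-B replicate 1) and −0.38 (without sPre-B replicate 2). *Fcer2a* was not called without early LPre-B replicate 1, at 1.37.

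Over the 14 of 18 BCL2 family genes that passed the filter on low counts, 4 rose and 6 fell, against 29.1% and 31.1% of all genes tested, with a median of −0.06. The survival gene *Bcl2* fell from 10.0 and 9.05 to 0.946 and 0.780 CPM (log2 fold change −3.46, SE 0.18, edgeR adjusted P = 1.84e-06), whereas its relatives *Bcl2l1* (BCL-XL) and *Mcl1* rose from 140.3 and 142 to 279 and 275 CPM and from 216 and 223 to 478 and 469.9 CPM. The death activator *Bmf* rose from 27.2 and 33.4 to 363 and 416 CPM (log2 fold change 3.68, SE 0.15, edgeR adjusted P = 9.08e-07), *Bbc3* (PUMA) rose by 1.62 and *Bok* fell by 4.01, while *Bcl2l11* (BIM) was not called, at 43.2 and 45.8 CPM in early LPre-B and 51.4 and 52.0 CPM in sPre-B cells. Genes of quiescence and mRNA decay rose in 18 of 22 cases, against 29.1% of all genes tested. *Btg1* and *Btg2*, which slow division and recruit deadenylases, stood at 293 and 317 CPM in early LPre-B and 1674 and 1739 CPM in sPre-B cells and at 174 and 188 CPM in early LPre-B and 954 and 963 CPM in sPre-B cells. *Txnip*, a brake on glucose uptake, rose by 2.17 and *Ypel3* by 2.05. The AU-rich element binding protein genes *Zfp36* and *Zfp36l1* rose by 1.42 and 0.74, whereas *Zfp36l2* fell by 0.67. Among 18 tested p53 pathway genes 11 rose and 2 fell, beside the same shares of all genes. *Trp53* itself was not called, at 147 and 128 CPM in early LPre-B and 134 and 145 CPM in sPre-B cells, and *Trp53inp1* rose from 329 and 356 to 1145 and 996 CPM.

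Genes of growth and energy supply fell far more often than they rose, where 31.1% of all genes tested were lower and 29.1% higher. Of 85 cytosolic ribosomal protein genes 79 fell and 0 rose, with a median log2 fold change of −0.96. Early LPre-B replicate 1 was above replicate 2 in all 85 of these genes, and the list's 87 members summed to 44689 and 32796 CPM there and to 20429.9 and 17345 CPM in sPre-B cells. Without early LPre-B replicate 1 the median was −0.65. *Rps2* went from 1228 and 799 to 216 and 182 CPM, while *Rps27*, at 313 and 212 CPM in early LPre-B and 282 and 228 CPM in sPre-B cells, was not called. The list has many processed copies in the genome, so counts of single members are uncertain. Factors of the nucleolus fell in 22 of 26 cases, with *Ncl* and *Npm1* lower by 1.69 and 1.75. Respiratory chain genes fell in 71 of 79 cases, with a median of −0.92, and *Cox6a2*, the heart and muscle form of a cytochrome oxidase subunit, was the exception that rose, from 2.04 and 2.91 to 16.4 and 20.7 CPM (log2 fold change 2.92, SE 0.21, edgeR adjusted P = 7.87e-06). Proteasome genes fell in 33 of 39 cases (median −0.73). Early LPre-B replicate 1 was again above replicate 2 in 26 of 26 nucleolar, 75 of 79 respiratory and 37 of 39 proteasome genes, and without it their medians were −0.72, −0.65 and −0.50. Glycolysis genes fell in 15 of 21, with *Ldha*, which makes lactate, at 343 and 241 CPM in early LPre-B and 64.0 and 56.7 CPM in sPre-B cells and *Gapdh* at 277 and 220.4 CPM in early LPre-B and 49.1 and 48.5 CPM in sPre-B cells, while the aldolase *Aldoa* rose by 0.62 (0.97 without early LPre-B replicate 1) and the transporter *Slc2a1* was not called, at −0.06. Cholesterol synthesis genes fell in 15 of 20, *Idi1* by 2.72 and *Sqle* by 2.0, while *Mvd* rose by 0.99. Early LPre-B replicate 1 was above replicate 2 in 18 of 21 glycolysis and 19 of 20 cholesterol genes. Over all alternatives the glycolysis median, −0.974, ran from −1.048 to −0.655, and the cholesterol median, −0.661, from −0.672 to −0.539. The endoplasmic reticulum list had 11 higher and 9 lower of 27, against 29.1% and 31.1% of all genes tested. Its sensors *Ern1*, *Eif2ak3* and *Atf6* rose by 1.27, 1.46 and 0.90, whereas the chaperones *Canx* and *Sdf2l1* fell by 1.05 and 1.98.

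NMD genes had a median near that of all genes. *Upf1*, the floxed gene, stood at 237 and 213 CPM in early LPre-B and 186 and 198 CPM in sPre-B cells (log2 fold change −0.23, SE 0.10, edgeR adjusted P = 0.0694) and was not called, and neither were *Upf2*, *Upf3b* or *Smg1*, at 0.14, −0.24 and 0.23. With a replicate block within genotype *Upf1*, *Upf3b* and *Smg1* were called, at −0.23, −0.24 and 0.23. Of 20 genes 4 rose and 5 fell, against 29.1% and 31.1% of all genes tested, with a median of 0.05. The core of the exon junction complex, which marks spliced mRNA for NMD, supplied 4 of those that fell. *Magoh* went from 58.1 and 47.4 to 19.2 and 15.2 CPM (log2 fold change −1.62, SE 0.14, edgeR adjusted P = 2.24e-05), and *Eif4a3*, *Magohb* and *Rbm8a* fell by 1.24, 1.09 and 0.81. *Smg6*, the endonuclease of the pathway, rose by 0.58.

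Markers of other cells were measured in the same libraries. The 12 T cell markers, of which 7 passed the filter on low counts, summed to between 3.52 and 5.25 CPM in the Ctrl libraries. Of the 7, 0 were called higher and 2 lower, both at a log2 fold change of −2 or less, against 29.1% and 31.1% of all genes tested. Myeloid markers were higher in sPre-B cells in 7 of 14 cases and lower in 0, against 29.1% and 31.1% of all genes tested. Their sum was 125 and 152 CPM in early LPre-B and 366 and 428 CPM in sPre-B cells, and *Itgam* (CD11b), with 87.1 and 97.4 and 228 and 262 CPM, made up most of it. The neutrophil genes *S100a9* and *Ngp* stood at 6.11 and 8.04 CPM in early LPre-B and 28.3 and 33.1 CPM in sPre-B cells and at 6.97 and 8.55 CPM in early LPre-B and 32.4 and 37.7 CPM in sPre-B cells, and the macrophage gene *Adgre1* below 1 CPM in every Ctrl library. Of 9 markers of natural killer and dendritic cells 7 were tested. Of these 4 were called higher and 2 lower, beside the same shares of all genes, and both of the latter had log2 fold changes of −2 or less. All 9 summed to 59.7 and 65.1 CPM in early LPre-B and 553 and 623 CPM in sPre-B cells. *Ly6d*, which B-lineage progenitors express too, made up most of the sum, at 49.6 and 48.8 CPM in early LPre-B and 487 and 505 CPM in sPre-B cells (log2 fold change 3.33, SE 0.18, edgeR adjusted P = 2.4e-06). *Itgax* (CD11c), a marker of dendritic cells, was at 4.72 and 10.3 CPM in early LPre-B and 63.2 and 114 CPM in sPre-B cells, while *Siglech*, *Xcr1* and *Ncr1* stayed below 1 CPM in every Ctrl library and *Gzma* was at 0. Of the 4 called higher, *Siglech* was not called without early LPre-B replicate 1 (adjusted P = 0.102, edgeR) or sPre-B replicate 2 (adjusted P = 0.098, edgeR), and *Xcr1* was not called when either cKO early LPre-B library, Ctrl early LPre-B replicate 2 or either Ctrl sPre-B library was left out (adjusted P up to 0.169, edgeR), with the replicate block or with DESeq2. Antibodies to CD11b and CD11c, and to markers of macrophages, T cells and erythroid cells, were part of the study's staining, and the sort took cells that lacked lineage markers. The part of other cells in the increases of sPre-B cells, the MHC genes included, was not tested. *Pf4* and *Itga2b*, markers of megakaryocytes, were at 2.87 and 0.0426 and at 11.1 and 1.84 CPM in sPre-B replicates 1 and 2, so that replicate 1 alone stood apart, and *Cxcl12*, a stromal gene, was higher in replicate 1 of both stages, at 4.93 and 0.385 and 7.46 and 0.837 CPM. Stromal markers were called higher in 1 of 6 cases, stem cell and megakaryocyte markers in 1 of 7, and markers of mature B cells in 4 of 5. For all genes tested this share was 29.1%. *Itgax* and *Prdm1* differed by more between their sPre-B libraries than the median gene. Again beside 29.1% of all genes tested, erythroid markers were called higher in 1 of 8 cases and plasma cell markers in 2 of 5. Of the latter, *Prdm1* went from 1.21 and 1.05 to 15.7 and 7.70 CPM, and *Jchain*, a plasma cell gene, stood at 2.24 and 0.115 CPM in early LPre-B and 2.32 and 0.440 CPM in sPre-B cells.

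The same step in cKO cells was set beside these values to find where the Ctrl step differed from it. Taking the cKO change from the Ctrl change for each gene, 283 genes (1.60%) were higher and 467 (2.64%) lower in Ctrl at an adjusted P under 0.05. All 4 cKO libraries were high in *Xist* with at most 34 counts over the Y-linked genes, whereas each Ctrl stage had 1 library of either pattern, and the part of sex in these differences was not tested. Other ways of testing gave larger counts, 725 and 1045 with the DESeq2 Wald test, 504 and 1004 with edgeR's likelihood-ratio test, 497 and 1078 without the expression filter, and 782 and 1360 with a replicate block within genotype. Without 1 library at a time the counts ran from 42 higher and 84 lower (without cKO early LPre-B replicate 1) to 333 and 569 (without Ctrl sPre-B replicate 1), where all libraries gave 283 and 467. They were 80 and 168 without cKO early LPre-B replicate 2, 88 and 163 without cKO sPre-B replicate 1, and 167 and 305 without cKO sPre-B replicate 2. In Ctrl they were 112 and 142 without sPre-B replicate 2, 117 and 125 without early LPre-B replicate 2, and 213 and 203 without early LPre-B replicate 1. Among the lists above, the replication machinery was called different in 4 of 32 genes, mitosis in 1 of 38 and B-lineage factors in 3 of 43, all with a lower value in Ctrl. The p53 pathway had 6 lower and 1 higher of 18, homing and adhesion 5 and 0 of 19, and NF-kB 4 and 0 of 20. Lists that leaned the other way included lambda segments, with 3 higher and 0 lower of 9, and heavy chain V segments, with 4 and 2 of 111. NMD factors had 2 higher and 0 lower of 20 and glycolysis 2 and 0 of 21. Median log2 fold changes of the lists in Ctrl and cKO were −3.21 and −2.70 for replication, −3.03 and −2.01 for mitosis, 4.79 and 5.66 for kappa V, and 8.79 and 7.36 for lambda segments. The recombination list had 3 lower (*Rag1*, *Rag2* and *Dntt*) and 2 higher of 20. *Rag1* rose in both, by 3.03 in Ctrl and 4.71 in cKO (adjusted P of the difference 0.0315, edgeR), and stood at 44.0 and 74.9 CPM in early LPre-B and 1497 and 1612 CPM in sPre-B cells of cKO mice. The differences of *Rag1* and *Rag2* were not called when any 1 library other than cKO early LPre-B replicate 2 or Ctrl sPre-B replicate 1 was left out, with adjusted P of 0.0684 to 0.0898 and 0.0836 to 0.111 (edgeR). *Iglv1* rose more in Ctrl, by 8.40 against 4.98 (adjusted P of the difference 0.000401, edgeR), with 4.36 and 4.26 CPM and 137 and 136 CPM at the cKO stages. *Ccnd2* was at 333 and 257 CPM in early LPre-B and 227 and 158 CPM in sPre-B cells of cKO mice, a log2 fold change of −0.62 against −3.37 in Ctrl (adjusted P of the difference 0.00612, edgeR). *Cdkn1a* fell by 3.55 in Ctrl and had a log2 fold change of −1.56 in cKO (adjusted P of the difference 0.00384, edgeR). *Cd180*, a toll-like receptor relative of B cells, rose in Ctrl from 32.8 and 28.6 to 59.1 and 59.5 CPM and stood in cKO at 29.3 and 19.4 and 9.58 and 6.91 CPM (adjusted P of the difference 0.00612, edgeR). *Il9r*, a cytokine receptor gene, was below 0.5 CPM in all Ctrl libraries and went from 0.230 and 0.239 to 62.2 and 55.7 CPM in cKO (adjusted P of the difference 0.00433, edgeR; 0.0705 without Ctrl early LPre-B replicate 1). Its increase in Ctrl was not called without sPre-B replicate 1, at 0.78.

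**Figure D5:**
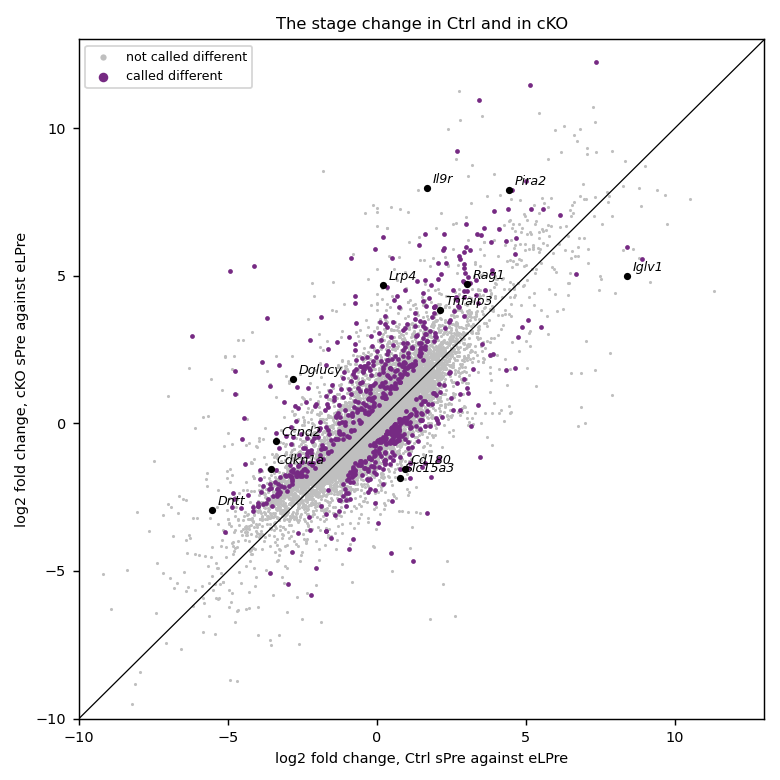
Each point is a gene tested, with its log2 fold change (sPre against early LPre) in Ctrl on the horizontal and in cKO on the vertical axis, and the line marks equal change. Purple points are the 283 and 467 genes called different, with some genes named in black, with *Ccnd2* above the line and *Cd180* below it.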

How the data were processed

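RNA of early LPre- and sPre-B cells sorted from Ctrl and cKO mice was sequenced after ribosomal RNA depletion. Per the labels and the study's methods, the authors trimmed reads with Trim Galore, aligned them as pairs to mm10 with HISAT2 and counted them per gene with featureCounts, without strand. Versions are not given in the sources used here. The deposited table holds raw counts of 27179 genes by Entrez number, and RefSeq gave names to 25275 and GENCODE to 18 of them.

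Genes that passed edgeR's filterByExpr (17700) were scaled by TMM and fitted with edgeR 4.0.16 (R 4.3.3) over 8 libraries with 1 mean per group, which share the estimate of the spread. Each contrast was given edgeR's quasi-likelihood F test (two-sided), with P-values adjusted by Benjamini-Hochberg over all genes tested. The SE is the log2 fold change divided by the square root of F. DESeq2 1.42.0 as another test, other scalings, filters, composition, a replicate block and libraries left out were compared. Precision rests on 2 libraries per group.

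The members, gene lists and motifs were chosen with earlier results of these data known. Genes named are members of these lists, the 15 largest changes in each direction by the rule given in the text, the 5 largest differences in each direction between Ctrl and cKO, or, where said, genes chosen after their values were seen. Single segments, histones, ribosomal and respiratory genes were picked from their lists after their values were seen. List results are counts and medians, with no test of the list. Some items that these rules name are not reported here. Promoter sequences are from RefSeq, build GRCm38.p6.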

Additional observations from a re-analysis of the deposited data

Results flagged for a closer look

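For the genes below, the stage change in Ctrl and that in cKO cells differed by the edgeR test of the difference itself, and the value given is the Ctrl change minus the cKO change on the log2 scale. The value was above 0 for *Iglv1* 3.42, *Slc15a3* 2.62, *Cd180* 2.51, *Cd86* 2.51, *Iglc2* 2.45, *Pde4c* 2.26, *Uchl1* 1.99, *Serpinb1a* 1.93, *Cox6a2* 1.43, *Aldoa* 1.02, *Xrcc5* 0.91, *Smg6* 0.71. It was below 0 for *Il9r* −6.29, *Clec2g* −5.96, *Lrp4* −4.48, *Dglucy* −4.30, *Pira2* −3.48, *Fcer2a* −3.24, *Ccnd2* −2.76, *Cxcr5* −2.68, *Dntt* −2.59. Smaller differences below 0 were those of *Cdkn1a* −1.99, *Tnfaip3* −1.73, *Col5a3* −1.69, *Rag1* −1.68, *Ciita* −1.62, *Igkv9-123* −1.46, *Mybl2* −1.43, *Vpreb1* −1.41, *Mcm7* −1.20. The smallest were those of *H2bc21* −1.05, *Bbc3* −0.98, *Mxd4* −0.96, *Lef1* −0.94, *Cnr2* −0.91, *Rbl1* −0.91, *Itgam* −0.90, *Rag2* −0.89, *Cd55* −0.89, *Jak3* −0.85, *S1pr1* −0.67, *Zfp36l1* −0.64, *Foxo1* −0.62. *Clec2g* and *Pira2* belong to families of near-identical genes, so their counts are uncertain. *Slc15a3* encodes a transporter of histidine and peptides, *Uchl1* a ubiquitin hydrolase and *Serpinb1a* an inhibitor of neutrophil proteases. Of these 43 genes 31 were not called different when at least 1 of the 8 libraries was left out. The other 12 were *Ccnd2*, *Cd180*, *Cdkn1a*, *Dglucy*, *Dntt*, *Iglc2*, *Iglv1*, *Lrp4*, *Serpinb1a*, *Slc15a3*, *Tnfaip3* and *Uchl1*. Counts of genes called different without single libraries are given with the comparison of the genotypes.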

How the results depend on the processing

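The number of genes called higher, lower and beyond a log2 fold change of 2 in either direction in the Ctrl step stayed within 1.5 times of its value under every alternative run, and the median over all genes shifted by at most 0.08. The numbers of genes called different between Ctrl and cKO (283 higher and 467 lower) moved. They were 497 and 1078 without the expression filter, 725 and 1045 with the DESeq2 Wald test and 504 and 1004 with edgeR's likelihood-ratio test, and without 1 library at a time 42 to 333 and 84 to 569. No source states that same-numbered libraries share an animal, though in Ctrl they shared the *Xist* and Y-linked pattern, and with 2 pairs the number was not used as a pairing. Deviations from the group means of same-numbered libraries correlated at 0.395 in Ctrl and 0.254 in cKO, over genes. With a replicate block the Ctrl step had 5338 genes higher and 5604 lower, and 829 and 1503 beyond 2, while the difference between genotypes had 354 and 598. With the replicate block within genotype the latter were 782 and 1360. Leaving out immunoglobulin genes, which removes *Ighm*, turned the median of the surrogate light chain and receptor list to −2.30. Leaving out 1 library at a time, the median of the stroma markers ran from −0.36 (without Ctrl sPre-B replicate 1) to 1.59, and *Clec2g* from −0.88 to 3.15 (without Ctrl early LPre-B replicate 1), against −0.06 with all libraries. Over all alternatives the median of the BCL2 family ran from −0.07 to 0.05, that of the NMD factors from 0.04 to 0.15 and that of recombination and end joining from −0.21 to −0.04. *Bcl2l11*, *Cr2*, *Upf2*, *Vav1*, *Jchain* and *Itga2b*, not called with all libraries, were called without 1 Ctrl library, at 0.33, 0.63, 0.31, 0.35, 3.63 and 2.62. With the replicate block within genotype *Upf1*, *Upf3b*, *Smg1*, *E2f2*, *Inpp5d* and *Bcl2l11* were called. *Bcl2l11* was also called with median-ratio size factors and *Itga2b* without the expression filter. In the 150 bases nearest the start the E2F letters were held by 4.06% of promoters of genes at −2 or less and 0.211% at 2 or more, against 1.66% of all genes tested. The cause of these moves was not tested.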
